A study of Homo sapiens with 4 samples.

Results

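The core spliceosome components described here are 92 entries of the expression table that carry the KEGG annotation "Spliceosome". Set aside were the SR proteins, hnRNPs, HSPA chaperones, DDX and DHX helicases, EIF factors and snRNA genes. U2AF1, U2AF1L5, U2AF2, PUF60, RBM17 and the cap-binding proteins were set aside as well, whereas U2AF1L4 was kept. The 92 were chosen from 132 annotated entries, of 64873 entries in all, by annotation and gene name, and no measured value entered the rule. Earlier results of these data were known when the rule was set. RNA was sequenced from K562 cells, an established human erythroleukemia line that here overexpresses the S34F mutant of the splicing factor U2AF1. Of the 4 libraries, 2 came from cells given the solvent DMSO and 2 from cells given 30 uM SF1-8 for 48 h. SF1-8 is a ligand of the U2AF homology motif (UHM) domain of U2AF1, through which U2AF1 binds U2AF2. All 4 libraries carry the transgene, and no library from cells without it was analysed here, so its expression could not be checked. The comparison asks how RNA levels in these cells differ after treatment, and for these 92 entries how the levels of the splicing machinery itself differ.

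The spliceosome removes introns from pre-mRNA. It is built anew on each intron from small nuclear ribonucleoproteins (snRNPs), in which an snRNA is held by a ring of Sm or LSm proteins and by proteins particular to that snRNP. U1 recognises the 5′ splice site and U2 the branch point, the U4/U6.U5 tri-snRNP then joins, and the PRP19 complex accompanies the activation that precedes the first catalytic step. U2AF1 reads the 3′ splice site just before U2 is recruited, and SF3B1 of U2 carries short ligand motifs of the kind that UHM domains bind.

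Levels are given as FPKM, the deposited value scaled for gene length and library depth, always in the order replicate 1 and replicate 2. Differences are log2 fold changes of SF1-8 over DMSO from the deposited counts, fitted over all entries by edgeR's quasi-likelihood test, with a 95% interval in brackets where one is given. The table sums all transcripts of an entry, so isoforms are not analysed here. The deposited counts summed to between 45522905 in DMSO 1 and 67554610 in SF1-8 1, DMSO 1 being the shallowest library. The 14 erythroleukemia markers lie in 12 entries, since HBE1, HBG1 and HBG2 share one, and 11 of these entries reached 1 FPKM in every library, the exception being EPOR at 0.868 in SF1-8 2. Summed over the 12 entries, FPKM was 333.2 and 332.6 in the DMSO libraries and 305.0 and 323.4 in the SF1-8 libraries, lower in both of the latter. Of 14 markers of other blood and stromal cells, MPO and CDH5 were at 0 in every library. In all libraries 4 reached 1 FPKM (KRT18, EPCAM, LYZ and CD3D), and the FPKM summed over the 14 ran from 59.4 to 69.7. KRT18, the highest, had 34.6 and 32.2 FPKM with DMSO and 34.4 and 38.9 with SF1-8. KRT18, EPCAM and LYZ overlapped between the groups, and CD3D was lower in both SF1-8 libraries (5.14 and 4.68, then 3.91 and 3.83). COL1A1, a fibroblast collagen, stood at 5.39 and 2.60 in the DMSO libraries and at 1.21 and 0.0982 in the SF1-8 libraries. The part of these marker differences in the values below was not tested.

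None of the 92 core spliceosome entries passed an adjusted p of 0.05 in edgeR's quasi-likelihood fit, adjusted by the Benjamini-Hochberg method over 26167 entries, of which 11, or 0.042%, passed. At an unadjusted p below 0.05 in the same edgeR fit, 5 members differed, which is 5.43% of them beside 4.33% of all entries. Of these, 3 were higher with SF1-8 (SNRPA of U1, and BUD31 and PRPF19 of the PRP19 group; 1.78% of all entries were higher at this threshold). The other 2 were lower (LSM7 of the LSm ring and SNW1 of the activated spliceosome; 2.54% of all entries were lower). In bulk RNA, fewer cells of a kind and less RNA per cell cannot be told apart. Nothing in the labels says that the libraries came from separate cultures, so p-values measure the spread between these libraries, which may be technical. DESeq2 and edgeR without the filter on low counts each called 1 member at an adjusted p under 0.05, which was LSM7, and limma on log2(FPKM + 1) called 0. With 2 libraries against 2, an exact two-sided permutation test of a single gene cannot give a p below 0.333.

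The fold changes of the members were small beside those of the whole table. The median log2 fold change was 0.0056 for the members and -0.011 for all entries tested, and the median size of the fold change, whatever its direction, was 0.069 against 0.22. In 60 of 92 members the fitted log2 fold change was under 0.1 in size, in 83 it was under 0.25, and in 4 it was 0.5 or more (LSM7, RBMXL1, RBMXL2 and RBMXL3). Precision differed too: the median standard error was 0.0914 for the members and 0.331 for all entries. The members were expressed at a median of 10.9 FPKM against 1.13 for all entries tested. The 39 tested KEGG Spliceosome entries that were set aside lay close to the members in both respects. Their median size of the fold change was 0.061 and their median standard error 0.088.

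For 85 of the 92 members the 95% interval of the log2 fold change lay between -1 and 1, that is, within a change of 2-fold, and this held for 45.9% of all entries. The 7 exceptions were LSM7, SNRPD2, SF3B4, LSM6, RBMXL1, RBMXL2 and RBMXL3. Within the narrower limits of -0.5 and 0.5 lay the intervals of 69 members and of 26.4% of all entries. The fitted value was above 0 in 48 members and below 0 in 44. This split moved with the scaling, being 35 against 57 when libraries were scaled by their totals alone.

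In TMM-normalized counts, the SF1-8 libraries were both higher than the DMSO libraries in 26 members and both lower in 16, beside 17.3% and 18.1% of all entries tested. Where a single gene is said below to overlap, or to be higher or lower in both SF1-8 libraries, this refers to its FPKM. For some genes, such as LSM2 and SNRPE, this differs from the order in TMM-normalized counts. The counts of members depended on the scaling as well. With library totals alone the counts were 9 and 15, beside 12.1% and 21.45% of all entries. In the deposited FPKM values they were 14 and 14, beside 14.16% and 20.01%.

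**Figure D1:**
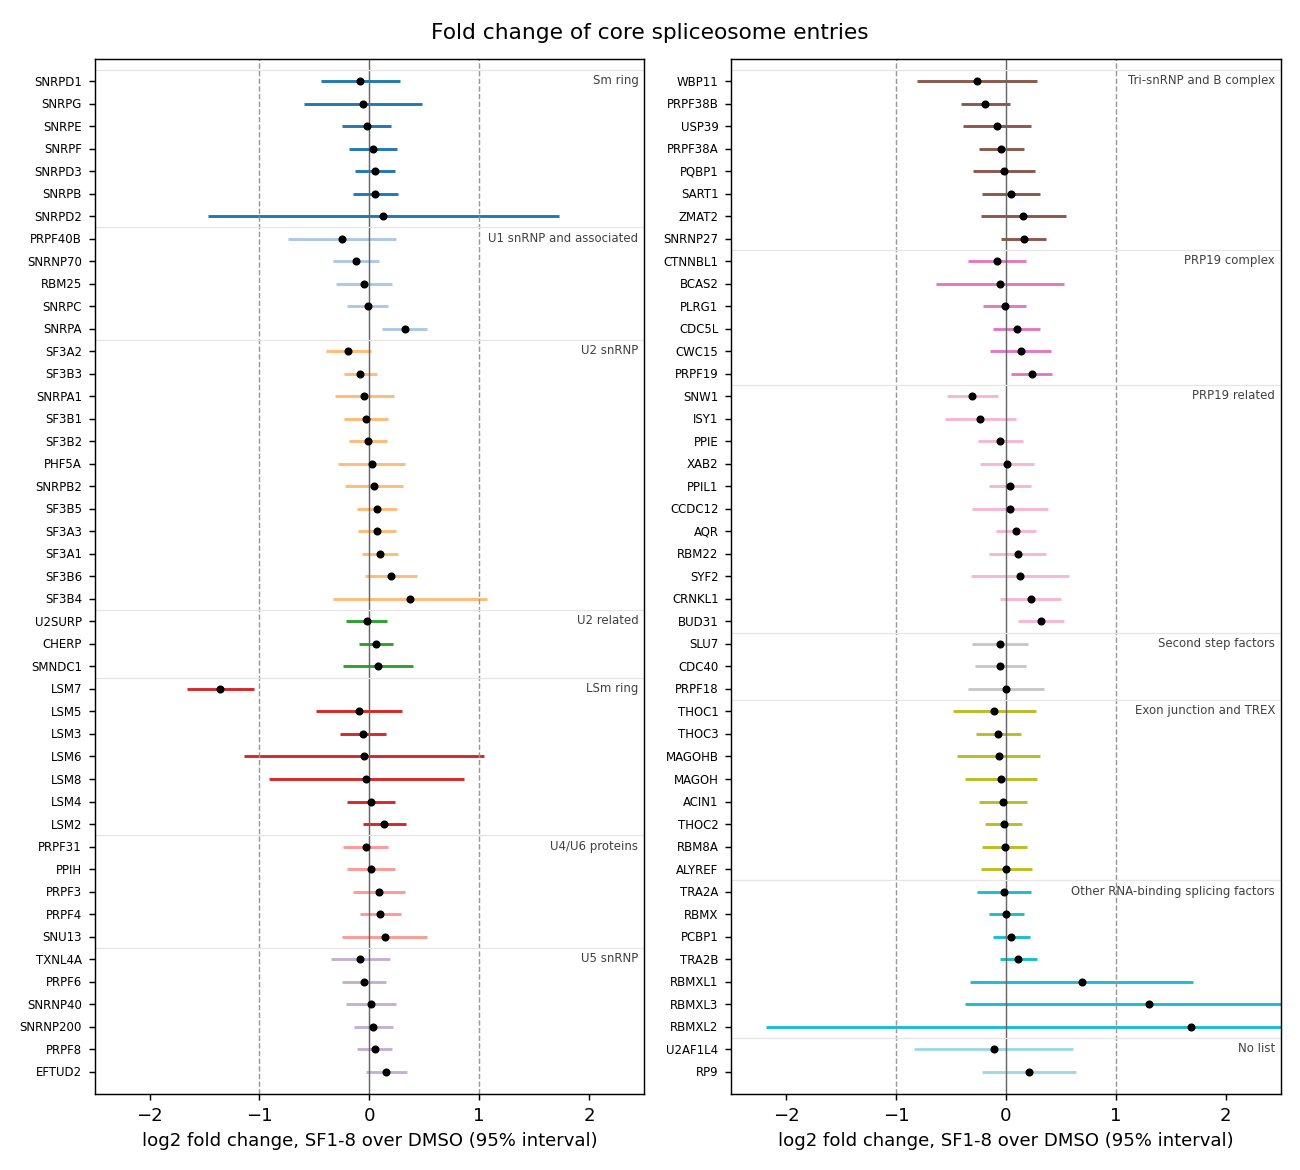
Log2 fold change of SF1-8 over DMSO for 90 of the 92 core spliceosome entries, grouped by role, with points for the edgeR estimate and lines for its 95% interval (the intervals of RBMXL2 and RBMXL3 run past the right edge). LSM7 lies at -1.36 with its whole interval below -1, while 83 of the 90 intervals drawn lie between the dashed lines at -1 and 1.

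The promoters of the members were searched for known sequence motifs, which the choice of members did not use. RefSeq windows of 250 bases before and 50 after the start (GRCh38.p14) were matched by symbol for 80 of the 92 members. They were set beside 22199 windows of protein-coding genes. A member with several windows was counted as holding a motif if any of them held it. In the comparison set each window was counted singly, so the member shares can be raised by this. The core of the ETS family site, CCGGAAG on either strand, was in 48.8% of the 80 members and in 12.8% of the windows of protein-coding genes (10.3% of all 35116 windows). The core of the YY1 site, AAGATGGC, was in 13.8% and 3.53%, and that of the NRF1 site, GCATGCGC, in 8.75% and 3.74%. The GC box GGGCGG was in 67.5% and 56.3%, and the CCAAT box CCAAT in 46.2% and 34.7%. TATAAA was in 6.25% and 9.47%, and the E-box CACGTG in 6.25% and 8.34%. A match is a description of the letters, and binding of these factors was not measured here. The windows set beside the members were not limited to expressed genes. Whether the shares are particular to spliceosome genes was not tested.

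Of the 6 Sm ring members with a window, 4 held the ETS core. The 30 bases around a match, with the core in capitals as CCGGAAG or its reverse complement CTTCCGG, are shown because these genes encode parts of the same ring.
SNRPB, chr20:2470813-2470842, minus strand: tagtgagctggaCCGGAAGtaggtttctac
SNRPD2, chr19:45692362-45692391, minus strand: aggtccatgcccCTTCCGGatgtaggcagg
SNRPE, chr1:203861597-203861626, plus strand: ttctttattCCGGAAGttgctctcagaggc
SNRPG, chr2:70293491-70293520, minus strand: acttcatttcttCTTCCGGtccgaggtcgc

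The promoters of the 5 members with an unadjusted p under 0.05 by edgeR's test were looked at for the same letters, and BUD31 alone held the ETS core. LSM7 held 3 matches to the NRF1 core, 2 of which overlap on opposite strands, in a stretch that also lies at the start of the divergent gene SPPL2B. The GC box was found in the windows of LSM7, SNRPA, BUD31 and SNW1 and the CCAAT box in those of SNRPA and PRPF19. For LSM7 the 30 bases around the NRF1 matches and for SNRPA and BUD31 the 30 bases around the GC box are shown, and for PRPF19 and SNW1 the stretch before the start that lies in no annotated exon, all with matches in capitals and read in the direction of the gene.
LSM7, chr19:2328620-2328649, minus strand: ggccacGCATGCGCcGCGCATGCGCgtggg
SNRPA, chr19:40751135-40751164, plus strand: atttagggtgctCCGCCCaccgggtcgcgt
BUD31, chr7:99408898-99408927, plus strand: tccgcgcgggtaGGGCGGggctccgcaagg
PRPF19, chr11:60906589-60906705, minus strand: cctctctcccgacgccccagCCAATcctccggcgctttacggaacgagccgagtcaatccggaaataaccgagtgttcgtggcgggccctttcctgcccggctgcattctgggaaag
SNW1, chr14:77761208-77761276, minus strand: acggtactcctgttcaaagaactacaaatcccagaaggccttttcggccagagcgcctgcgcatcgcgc

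In the PRPF19 stretch the capitals mark a CCAAT box, and the SNW1 stretch held none of the 7 motifs. Of the 5 genes, LSM7 alone had the NRF1 core in its window, and 7 of the 80 members held it. SNW1 did not hold it. The YY1 core was in the windows of LSM7 and SNW1 and not in those of SNRPA, BUD31 and PRPF19. Whether any of these matches bears on the differences was not tested.

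The 7 Sm proteins form the ring around U1, U2, U4 and U5 snRNA. Their mean FPKM over the 4 libraries ran from 9.97 for SNRPD1 to 38.4 for SNRPD2, and their log2 fold changes from -0.083 to 0.13, with 4 above 0 and 3 below. SNRPB, the B subunit, stood at 25.9 and 27.3 FPKM in the DMSO libraries and 26.7 and 27.7 in the SF1-8 libraries. Its groups overlapped, with a log2 fold change of 0.056 (-0.15 to 0.26). The entry of SNRPB also names AL049650 and ZNF343, and that of SNRPD3 also names AP000356 and GGT1.

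SNRPD1 had 9.29 and 11.4 FPKM with DMSO and 9.47 and 9.74 with SF1-8, the latter both inside the DMSO range. SNRPD3 had 14.3 and 12.9 with DMSO and 13.98 and 13.8 with SF1-8, again inside it. The E, F and G subunits form a trimer within the ring. SNRPE had 20.2 and 20.4 FPKM with DMSO and 19.2 and 19.99 with SF1-8. For SNRPF the values were 16.4 and 15.98 and then 15.7 and 16.9, and for SNRPG 28.4 and 36.7 and then 25.9 and 35.8. SNRPE was slightly lower in both SF1-8 libraries, and SNRPF and SNRPG overlapped. The log2 fold changes of these 3 were -0.024, 0.034 and -0.056.

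SNRPD2 differed between replicates of both groups more than between the groups. Its FPKM was 21.5 in DMSO 1 and 20.5 in SF1-8 1, against 52.1 in DMSO 2 and 59.6 in SF1-8 2. The replicate 1 libraries were thus both low and the replicate 2 libraries both high, by 1.35 and 1.52 on the log2 scale. The log2 fold change of 0.13 had an interval of -1.47 to 1.73, so changes of more than 2-fold either way lie within it. Genes of the Sm and LSm proteins have many processed pseudogenes, and how reads shared with such copies were counted is not given in the sources used here, so the values of these small genes are less certain than their counts alone would make them.

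The 7 LSm proteins of the U6 ring spanned a wide range of levels, from a mean of 2.02 FPKM for LSM6 to 84.5 for LSM2. LSM7 had the most negative log2 fold change of all 92 members. The entry lies at chr19:2321520-2328586 on the minus strand (GRCh38), and GENCODE version 29 gives the gene 7 transcripts, 3 of them protein-coding with at most 4 exons and 512 to 575 nt, 2 with a retained intron, 1 subject to nonsense-mediated decay and 1 processed transcript.

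LSM7 FPKM was 10.2 and 10.9 in the DMSO libraries and 3.89 and 4.17 in the SF1-8 libraries. Both SF1-8 libraries lay far below both DMSO libraries, and the replicates of each group differed little from each other. The counts behind these values were 1724 and 2578 with DMSO and 956 and 990 with SF1-8. The log2 fold change was -1.36 (SE 0.120, 95% interval -1.66 to -1.05), a level 2.56-fold lower with SF1-8, and by edgeR's quasi-likelihood test p was 7.77e-05 and the Benjamini-Hochberg adjusted p 0.0885. LSM7 ranked 23rd of the 26167 entries by p. The promoter stretch shown above, with its 3 NRF1 core matches, belongs to this entry.

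Whether LSM7 passed the adjusted threshold depended on the test. Its adjusted p was 5.61e-14 with DESeq2 and 0.0201 with edgeR without the filter on low counts, and from 0.0778 to 0.259 in the other 10 settings tried. The log2 fold change stayed between -1.44 and -1.20 in every setting. The entry overlaps, on the opposite strand, a larger entry that names OAZ1, AC005258 and SPPL2B, whose log2 fold change was -0.073 with 22.7 and 29.1 FPKM with DMSO and 23.5 and 25.04 with SF1-8. Whether counting used the strand is not given in the sources used here, so reads of the overlapping stretch cannot be told apart.

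Within the ring the position of LSM7 differed between the groups. By FPKM it ranked 4 of 7 in both DMSO libraries and 5 of 7 in both SF1-8 libraries. Its FPKM was 0.943 and 1.22 times the median of the other 6 ring members with DMSO, and 0.428 and 0.422 times that median with SF1-8. LSM2, the most abundant ring member, had 84.6 and 78.05 FPKM with DMSO and 84.5 and 90.98 with SF1-8, overlapping, with a log2 fold change of 0.14 (-0.058 to 0.33). LSM3, LSM4 and LSM5 had log2 fold changes of -0.059, 0.015 and -0.10.

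LSM6 and LSM8, the ring members of lowest level, varied between replicates. LSM6 had 1.52 and 2.61 FPKM with DMSO and 1.30 and 2.65 with SF1-8, low in both replicate 1 libraries. LSM8, the subunit that sets the nuclear ring apart from the cytoplasmic one, had 1.89 and 3.02 with DMSO and 3.01 and 1.75 with SF1-8, with the order of the replicates reversed between the groups. LSM8 is replaced in the cytoplasmic ring, which takes part in mRNA decay, by LSM1. LSM1 is no member of the 92 and had 13.1 and 11.9 FPKM with DMSO and 11.5 and 12.6 with SF1-8, overlapping, with a log2 fold change of -0.025 (-0.30 to 0.26).

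Other LSm-domain genes outside the annotation were looked up after the values of LSM7 had been seen. LSM12, which belongs to neither ring, had 10.1 and 9.23 FPKM with DMSO and 4.64 and 4.78 with SF1-8. The fitted difference was -1.01 on the log2 scale (-1.20 to -0.82), with an adjusted p of 0.0556 by edgeR's quasi-likelihood test. LSM10 and LSM11, of the U7 snRNP that processes histone mRNA, had log2 fold changes of 0.023 and 0.11, and LSM14A and LSM14B, of cytoplasmic granules, had -0.052 and -0.049.

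**Figure D2:**
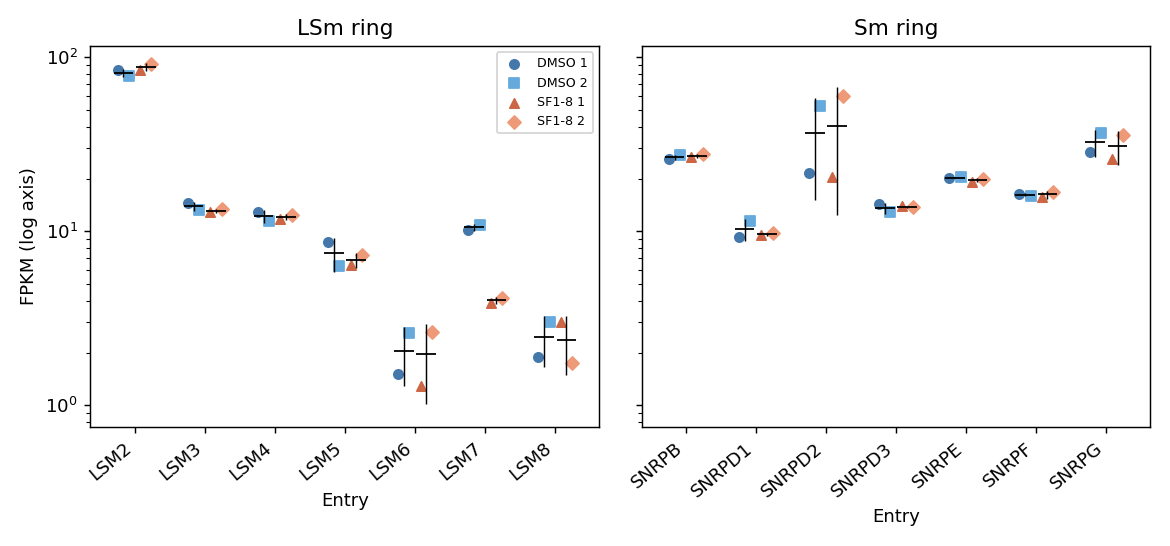
FPKM (log axis) of the 7 LSm and 7 Sm ring members in each library, with black bars for the group mean and SD (n = 2). LSM7 is the ring member whose SF1-8 libraries (3.89 and 4.17) lie farthest from its DMSO libraries (10.2 and 10.9), and SNRPD2 and LSM6 show low values in both replicate 1 libraries.

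U1 snRNP proteins recognise the 5′ splice site. Of the 7 U1 and U1-associated members, 5 had a fitted fold change below 0 and 2 above. SNRPA, the protein that binds a stem-loop of U1 snRNA, had 22.99 and 21.2 FPKM with DMSO and 27.7 and 26.5 with SF1-8. The SF1-8 values were both above the DMSO values. The log2 fold change was 0.32 (SE 0.0804, 95% interval 0.12 to 0.53), with a p of 0.00988 and an adjusted p of 0.970 by edgeR's quasi-likelihood test.

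The other proteins particular to U1 did not share this difference in their fitted values. SNRPC, which stabilises the pairing of U1 with the 5′ splice site and was the most abundant U1 member, had 83.3 and 81.3 FPKM with DMSO and 77.9 and 82.04 with SF1-8, overlapping, with a log2 fold change of -0.014 (-0.20 to 0.17). SNRNP70, the protein that anchors on the first stem-loop of U1, had 13.2 and 11.8 with DMSO and 11.7 and 10.9 with SF1-8, both SF1-8 values being lower, with a log2 fold change of -0.12 (-0.33 to 0.087). RBM25 and PRPF40B, which associate with U1, had log2 fold changes of -0.048 and -0.25, and PRPF40B was under 1 FPKM in every library. The difference between SNRPA and the other U1 members was not tested.

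U2 snRNP is the particle that U2AF helps to place at the branch point. Its 12 members had log2 fold changes from -0.19 to 0.37, 7 above 0 and 5 below, and none had an unadjusted p below 0.05 in edgeR's fit. SF3B1, the scaffold of the SF3B complex that clamps the branch point, had 25.3 and 25.03 FPKM with DMSO and 22.9 and 25.5 with SF1-8. The groups overlapped, and the log2 fold change was -0.031 with an interval of -0.23 to 0.17.

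The large subunits SF3B2 and SF3B3 were close to SF3B1 in fold change. SF3B2, which contacts the pre-mRNA near the branch point, had 11.8 and 11.2 FPKM with DMSO and 11.1 and 11.2 with SF1-8, overlapping, with a log2 fold change of -0.014. SF3B3, a large propeller protein, had 20.5 and 19.5 with DMSO and 18.3 and 18.7 with SF1-8, both SF1-8 values being lower, and -0.084. The entry of SF3B3 also names SNORD111.

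Among the small SF3B subunits, SF3B5 was the most abundant U2 member, with 134 and 127 FPKM with DMSO and 132 and 138 with SF1-8. PHF5A, which with SF3B1 forms the pocket for the branch point adenosine, had 25.8 and 21.2 with DMSO and 22.04 and 24.7 with SF1-8. SF3B6, a branch point contacting protein, had 53.4 and 45.8 with DMSO and 53.6 and 57.6 with SF1-8. SF3B5 and PHF5A overlapped between the groups, and both SF1-8 values of SF3B6 were above its DMSO values, narrowly so for the first. The log2 fold changes were 0.071, 0.021 and 0.20 (-0.041 to 0.43).

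SF3B4 had the largest fitted difference in U2, and it rested on 1 library. Its FPKM was 17.4 in DMSO 1 but 9.20 in DMSO 2, and 17.6 and 15.9 in the SF1-8 libraries. DMSO 1 thus lay with the SF1-8 libraries and DMSO 2 apart, and the log2 fold change of 0.37 had an interval of -0.33 to 1.07. Without DMSO 2 the log2 fold change was 0.014, and without DMSO 1 it was 0.85.

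The SF3A trimer links SF3B to the rest of U2. SF3A1 had 23.6 and 22.2 FPKM with DMSO and 24.2 and 23.9 with SF1-8, and SF3A3 had 47.9 and 42.8 and then 46.4 and 47.02. SF3A2 had 11.6 and 10.7 with DMSO and 9.80 and 9.42 with SF1-8, in an entry that also names AMH and MIR4321. SF3A1 was higher in both SF1-8 libraries, SF3A2 was lower in both and SF3A3 overlapped, and their log2 fold changes were 0.10, -0.19 and 0.073. The interval of SF3A2 was -0.39 to 0.011 and its p 0.059 by edgeR's test.

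SNRPA1 and SNRPB2, which as a pair bind a stem-loop of U2 snRNA, overlapped between the groups. SNRPA1 had 8.63 and 7.78 FPKM with DMSO and 7.21 and 8.38 with SF1-8, and SNRPB2 had 10.4 and 9.32 and then 9.49 and 10.4. Their log2 fold changes were -0.045 and 0.043. Of the 3 U2-related members, U2SURP had 10.3 and 9.12 FPKM with DMSO and 9.04 and 9.66 with SF1-8, and SMNDC1, an SMN-like protein needed for the tri-snRNP to join, had 6.33 and 5.12 and then 5.56 and 6.29. Both overlapped between the groups, and the log2 fold changes were -0.023 and 0.082. CHERP, whose entry names 5 further genes, had 0.064, and the entry of U2SURP also names PAQR9-AS1.

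Some proteins that place U2 are given for context. U2AF1 and U2AF2 were set aside by the choice of members, and the gene SF1 was not taken by the annotation. U2AF1 is the source of the transgene and holds the UHM domain of which SF1-8 is a ligand. Whether SF1-8 binds other proteins in these cells was not examined here. U2AF1 had 11.4 and 11.5 FPKM with DMSO and 11.9 and 12.02 with SF1-8. Both SF1-8 values were higher by a small margin, with a log2 fold change of 0.085 (-0.10 to 0.27). U2AF2, which reads the polypyrimidine tract, had 25.5 and 24.6 with DMSO and 23.8 and 23.4 with SF1-8, and -0.058 (-0.23 to 0.11). The gene SF1, the branch point binding protein (not the compound), had 35.2 and 35.6 and then 34.9 and 33.98, with -0.012 (-0.19 to 0.17).

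The U4/U6 proteins hold U6 paired to U4 until activation. PPIH, a cyclophilin of this particle, had 32.3 and 31.7 FPKM with DMSO and 30.7 and 32.9 with SF1-8, overlapping, with a log2 fold change of 0.018. SNU13, the protein that binds the kink-turn of U4, had 28.1 and 21.5 with DMSO and 23.8 and 29.7 with SF1-8, overlapping and with replicate differences in opposite order, and 0.14 (-0.25 to 0.53). PRPF3, PRPF4 and PRPF31 lay between -0.033 and 0.10.

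The U5 snRNP contains the catalytic scaffold PRPF8, the helicase SNRNP200 that unwinds U4/U6, and the GTPase EFTUD2 that controls it. SNRNP200 had 42.5 and 43.7 FPKM with DMSO and 43.98 and 42.9 with SF1-8, overlapping, with a log2 fold change of 0.037 (-0.14 to 0.21) in an entry that also names AC021188. EFTUD2 had 16.7 and 17.2 with DMSO and 18.4 and 18.6 with SF1-8, both SF1-8 values being higher, and 0.16 (-0.031 to 0.34). All 6 U5 intervals lay within the narrower limits of -0.5 and 0.5, and the fold changes ran from -0.081 for TXNL4A to 0.16 for EFTUD2.

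Of the 8 proteins of the tri-snRNP and the B complex, 3 were fitted above 0 and 5 below. USP39, a deubiquitinase-like protein of the tri-snRNP, had 22.4 and 21.8 FPKM with DMSO and 22.6 and 18.3 with SF1-8, overlapping. WBP11 had 10.4 and 8.98 with DMSO and 9.57 and 6.20 with SF1-8, where SF1-8 2 alone lay outside the range of the others. Their log2 fold changes were -0.080 (-0.39 to 0.23) and -0.26 (-0.81 to 0.29). Without SF1-8 2 that of WBP11 was 0.025. The other 6, among them SART1, which tethers the tri-snRNP, ran from -0.19 for PRPF38B to 0.16 for SNRNP27. The entry of SNRNP27 also names MXD1.

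The PRP19 complex is a ubiquitin ligase assembly that joins at activation. PRPF19, the ligase itself, had 54.6 and 54.2 FPKM with DMSO and 64.8 and 60.99 with SF1-8. Both SF1-8 libraries were above both DMSO libraries, and the log2 fold change was 0.24 (SE 0.0733, 95% interval 0.049 to 0.42), with a p of 0.0225 and an adjusted p of 0.970 by edgeR's quasi-likelihood test. The other 5 subunits, CDC5L, PLRG1, BCAS2, CTNNBL1 and CWC15, lay between -0.084 and 0.14, and BCAS2 differed between the DMSO replicates by 0.52 on the log2 scale.

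Among the 11 PRP19-related proteins, which enter the activated spliceosome, 8 were fitted above 0 and 3 below. BUD31, a small zinc finger protein near the catalytic centre, had 17.2 and 16.3 FPKM with DMSO and 20.2 and 20.8 with SF1-8. SNW1, also called SKIP, had 17.1 and 16.1 with DMSO and 12.6 and 13.8 with SF1-8. For both genes the groups did not overlap, BUD31 being higher and SNW1 lower with SF1-8.

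BUD31 had a log2 fold change of 0.32 (SE 0.0814, 95% interval 0.11 to 0.53), with a p of 0.0104 by edgeR's quasi-likelihood test. SNW1 had -0.30 (SE 0.0925, 95% interval -0.54 to -0.068), with a p of 0.021 by the same edgeR test. The Benjamini-Hochberg adjusted p of edgeR was 0.970 for both, so neither passed. PPIL1, a cyclophilin and the most abundant of the group, had 43.6 and 41.8 FPKM with DMSO and 43.5 and 42.6 with SF1-8, overlapping, with a log2 fold change of 0.039. AQR, XAB2, CRNKL1, ISY1, SYF2, RBM22, PPIE and CCDC12 lay between -0.23 for ISY1 and 0.22 for CRNKL1. The entry of ISY1 also names RAB43 and ISY1-RAB43.

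The 3 second step factors, which act on the 3′ splice site after the first catalytic step, lay close together. CDC40 had 5.03 and 4.85 FPKM with DMSO and 4.62 and 4.76 with SF1-8, and SLU7 had 4.85 and 4.54 and then 4.40 and 4.46. Both were lower in both SF1-8 libraries, with log2 fold changes of -0.049 (-0.28 to 0.19) and -0.056 (-0.31 to 0.20). PRPF18 was near 1 FPKM in all 4 libraries, with 0.0051, in an entry that also names AL157392.

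Exon junction and TREX proteins mark spliced mRNA and couple it to export. Of these 8 members, 7 were fitted below 0, the lowest at -0.11, and 1 above. ALYREF, the export adaptor, had 57.7 and 60.3 FPKM with DMSO and 60.4 and 55.95 with SF1-8, and THOC1, of the THO complex, had 6.09 and 4.42 and then 4.52 and 5.01. Both overlapped between the groups. Their log2 fold changes were 0.0057 (-0.23 to 0.24) and -0.11 (-0.48 to 0.27).

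The last group holds RNA-binding proteins that are not snRNP parts. PCBP1, a poly(C) binding protein, was the most abundant of all 92 members, with 147 and 147 FPKM with DMSO and 149 and 150 with SF1-8. Both SF1-8 values were higher, by a margin of under 0.1 on the log2 scale (0.051, 95% interval -0.12 to 0.22). TRA2A, TRA2B and RBMX had -0.017, 0.11 and 0.0055, and the entry of RBMX also names SNORD61.

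The 3 RBMX-like retrogenes had wide intervals. RBMXL2 had a count of 0 in DMSO 1, where its FPKM was taken as 0, and 0.0537 FPKM in DMSO 2. In the SF1-8 libraries RBMXL2 had 0.125 and 0.0649 FPKM, and its counts were at most 23. RBMXL3 had 0.0575 and 0.0402 with DMSO and 0.154 and 0.0902 with SF1-8, from counts of at most 45. RBMXL1 shares an entry with KYAT3 and had 4.41 and 3.87 FPKM with DMSO and 3.83 and 9.27 with SF1-8, so that SF1-8 2 alone was high. All 3 derive from copies of RBMX, with which they may share reads, and their fold changes are uncertain for that reason as well. The 2 members in none of the role lists were RP9 with 0.21 and U2AF1L4, in an entry with IGFLR1 and AD000671, with -0.11 (-0.83 to 0.61).

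**Figure D3:**
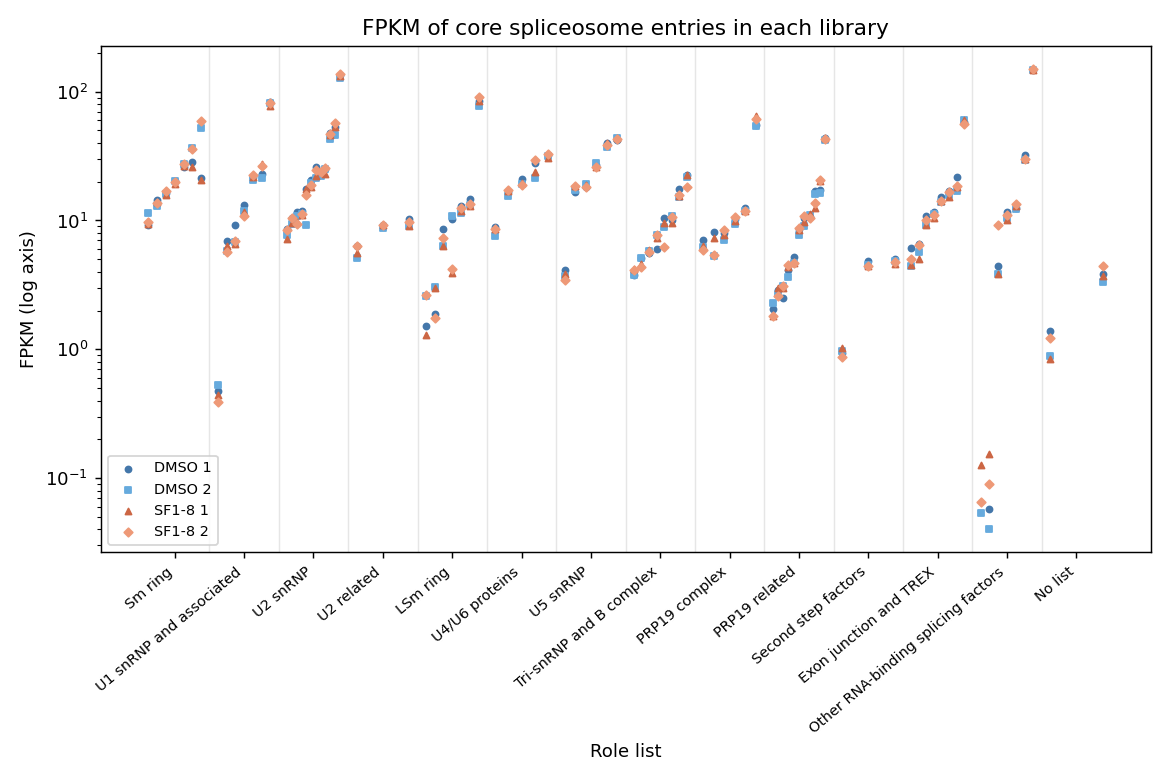
FPKM (log axis) of each core spliceosome entry in each of the 4 libraries, ordered by level within each role group, with 1 column of points per entry (the value of 0 of RBMXL2 in DMSO 1 cannot be drawn). Levels span from under 0.2 FPKM for RBMXL2 and RBMXL3 to 150.2 for PCBP1, and for most entries the 4 libraries lie on top of each other.

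Most members had a similar level in all 4 libraries. Of the 92 members, 71 had at least 5 FPKM in every library and 87 at least 1 FPKM. The 6 that reached 50 FPKM in every library were PCBP1, SF3B5, LSM2, SNRPC, ALYREF and PRPF19. The 3 that stayed under 1 FPKM in every library were PRPF40B, RBMXL2 and RBMXL3. In 56 members the highest library was less than 1.2 times the lowest, and in 6 it was at least 2 times the lowest (SNRPD2, LSM6, LSM7 and the RBMX-like genes). The FPKM summed over all members was 1776 and 1718 in the DMSO libraries and 1723 and 1810 in the SF1-8 libraries, and the groups overlapped.

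Summed by role, most groups overlapped between SF1-8 and DMSO as well. The Sm ring summed to 136.1 and 176.8 FPKM with DMSO and 131.5 and 183.5 with SF1-8, where SNRPD2 made up most of the spread. The U2 snRNP summed to 390.8 and 352.1 with DMSO and 374.2 and 390.9 with SF1-8. The PRP19 complex, with its abundant PRPF19, summed to 100.6 and 93.96 with DMSO and 107.8 and 103.3 with SF1-8, so both SF1-8 sums were higher. The second step factors summed to 10.8 and 10.4 with DMSO and 10.03 and 10.09 with SF1-8, so both were lower.

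Replicates of a group differed less in these genes than in the table as a whole. The members also had a higher level, at a median of 10.9 FPKM against 1.13 for all entries tested. The part of level in this difference was not tested. The median difference between DMSO 1 and DMSO 2, regardless of sign, was 0.0895 on the log2 scale for the members and 0.222 for all entries tested, and between SF1-8 1 and SF1-8 2 it was 0.085 and 0.183. The 8 members that differed by over 0.5 between replicates of at least 1 group were SNRPD2, LSM6, LSM8, SF3B4, BCAS2, WBP11, RBMXL1 and U2AF1L4. Of all 26167 entries tested, 8368 differed by over 0.5 in this way. Among the members SNRPD2 and RBMXL1 differed by over 1, beside 1531 of all entries tested. LSM7 differed by 0.17 between the DMSO replicates and by 0.087 between the SF1-8 replicates, regardless of sign, beside its difference of 1.36 between the groups.

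**Figure D4:**
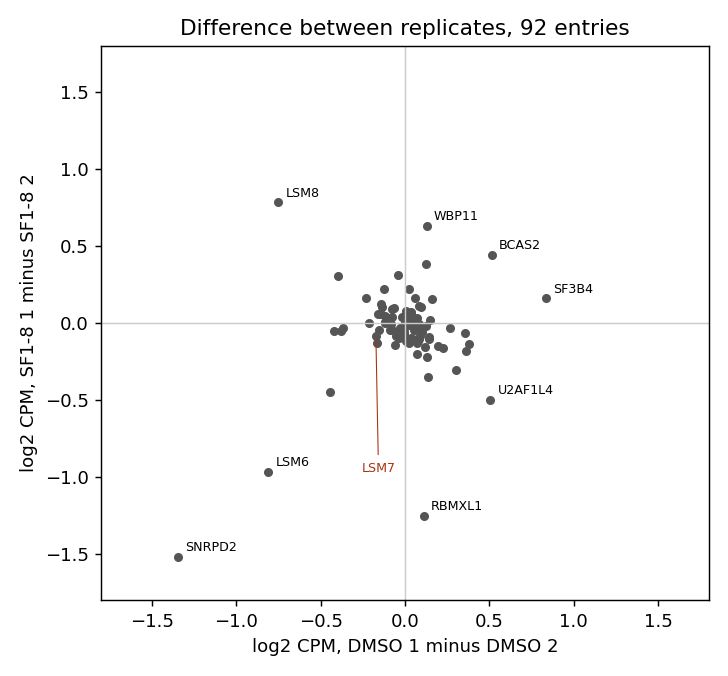
Difference between replicates 1 and 2 in log2 CPM, DMSO on the horizontal and SF1-8 on the vertical axis, 1 point per core spliceosome entry. Most points lie near 0 on both axes, LSM7 among them, while SNRPD2 lies at -1.35 and -1.52 and RBMXL1 at 0.11 and -1.25.

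Other parts of the splicing system were taken from lists made by annotation or function, with earlier results of these data known. The 39 tested entries of the same KEGG annotation that were set aside had a median log2 fold change of 0.014, with 22 above 0 and 17 below. Of these 39, 1 had an unadjusted p under 0.05 by edgeR's test, SRSF10, named after its value was seen, with 8.12 and 7.96 FPKM with DMSO and 9.02 and 9.46 with SF1-8, a log2 difference of 0.23 (0.045 to 0.41). Of 10 genes of the minor spliceosome, which removes U12-type introns, 8 were above 0 and 2 below, none with an unadjusted p under 0.05 by edgeR's test, and the median was 0.071.

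Of 16 genes that assemble snRNPs, those of the SMN complex and the methylosome that load the Sm ring onto snRNA, 11 were above 0 and 5 below, with a median of 0.078. GEMIN4 alone of these 16, a part of the SMN complex, had an unadjusted p under 0.05 by edgeR's test and is named after its value was seen. It had 7.26 and 6.93 FPKM with DMSO and 5.18 and 4.57 with SF1-8, both SF1-8 values being lower, with a log2 fold change of -0.51 (-0.77 to -0.25) and an adjusted p of 0.740 by edgeR's quasi-likelihood test.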

How the data were processed

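Total RNA depleted of ribosomal RNA was sequenced from 4 K562-U2AF1 S34F libraries, grouped by their sample titles. The deposited FPKM values were normalized by the authors for gene length and library depth. Here they were set to 0 wherever the count was 0. The deposited counts are whole numbers, of which 4 was the commonest above 0 in every library, so they were treated as estimated counts, not normalized. The submitters' processing notes name cutadapt, FastQC, Bowtie2, HISAT2, StringTie and hg38, with no versions. Entries without a gene name held 0.358 to 0.421% of the counts and were left out.

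Counts were normalized by TMM (factors from 0.973 to 1.05) and filtered by filterByExpr, which kept 26167 entries and all 92 members. They were tested with edgeR 4.0.16 (R 4.3.3) by the quasi-likelihood test, with Benjamini-Hochberg adjustment over all entries tested and a standard error from the log2 fold change and its F statistic. DESeq2 1.42.0 and limma 3.58.1 were alternatives, the latter on log2(FPKM + 1) and log2(FPKM + 0.1), with upper-quartile scaling, library totals alone, no filter, the replicate number as a block, leaving out each library, and counts divided by 4 (chosen after seeing the data). Counting error is unknown, since a deposited count may not stand for 1 read.

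Genes were named where they had an unadjusted p under 0.05, the highest mean FPKM or largest fold change of a role list, or belonged to U2 snRNP or the Sm ring. Members and lists were chosen with earlier results of these data known. Replicate numbers 1 and 2 are not known to pair libraries: the differences between them correlated between the groups at -0.0047 over all entries tested and at 0.275 over the 92 members. Transcript annotation comes from GENCODE version 29 and promoters from RefSeq. Proteins, isoforms and genome sequence were not analysed here. The values of 2 members, which the counts include, are not reported here.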

Additional observations from a re-analysis of the deposited data

How the results depend on the processing

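Under all alternatives LSM7 stayed lower with SF1-8, and members called at an adjusted p under 0.05 numbered 1 with DESeq2 and 1 with no filter on low counts, and 0 in the rest, leaving out each library included. Over all entries, 164 were called by DESeq2, 31 with no filter and 0 by limma. The replicate numbers are not known to pair the libraries. With the replicate block no member was called, 5 members had an unadjusted p under 0.05, and 0 of all entries were called. Without 1 library the count of members at an unadjusted p under 0.05 by edgeR ran from 4 to 8 (8 without DMSO 2), and that of members not overlapping from 61 to 72 (66.3% to 78.3% of the members, beside 63.4% to 72.7% of all entries), since fewer libraries have to be in order, and in these fits the lone library is assumed to vary like the other group. With library totals alone 24 members did not overlap, 26.1% beside 33.55% of all entries. Counts divided by 4 left 90 members tested.

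Among 41 named genes, 45 of 491 pairs of gene and setting changed sign, in genes whose log2 fold change was at most 0.26 in size, and the cause was not tested. In limma on log2(FPKM + 1) and log2(FPKM + 0.1) these were ALYREF (-0.021 and -0.021), PHF5A (-0.0051 and -0.0051) and PPIH (-0.0089 and -0.0092). With upper-quartile scaling ALYREF was -0.0097, and with counts divided by 4 it was -0.0074. With library totals alone the values were -0.039 for ALYREF, -0.028 for PHF5A, -0.027 for PPIH, -0.0081 for PPIL1, -0.0077 for SNRNP200, -0.0046 for SNRPB2 and -0.011 for SNRPF. Leaving out each library in turn gave the ranges ALYREF -0.065 to 0.085, PHF5A -0.070 to 0.12, PPIH -0.021 to 0.064, SF3B1 -0.10 to 0.043, SMNDC1 -0.022 to 0.20, SNRNP200 -0.022 to 0.10, SNRPA1 -0.14 to 0.057, SNRPB -0.019 to 0.14, SNRPB2 -0.014 to 0.11, SNRPC -0.041 to 0.020, SNRPD1 -0.26 to 0.12, SNRPD2 -0.83 to 0.97, SNRPE -0.069 to 0.027, SNRPF -0.010 to 0.085, SNRPG -0.29 to 0.19, SNU13 -0.016 to 0.30, THOC1 -0.28 to 0.10, U2SURP -0.061 to 0.022, USP39 -0.24 to 0.074 and WBP11 -0.61 to 0.025.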
